A study of Homo sapiens with 8 samples.

Results

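The data described here are the sgRNA counts of PC9-Cas9 cells after 72 h in 0.1 µM osimertinib, set against the cells collected at T0, the moment at which drug was added. The comparison asks which knockouts were lost or enriched from the start of osimertinib treatment (conditional essentiality). It rests on 4 of the 8 libraries, 2 from osimertinib-treated cells and 2 from T0, which were picked by their labels and not by any measured value. PC9 is an EGFR-mutant non-small cell lung cancer line; every group expressed Cas9 and carried the pooled genome-wide Toronto KnockOut library (TKOv3). The other libraries came from cells held for 72 h in 10 µM erlotinib (2 libraries) and from cells held for 72 h in the DMSO vehicle, which the labels call untreated (2 libraries). Puromycin selection preceded T0 in all groups, so T0 is a population that already carried knockouts for several days. Per the methods, live cells were collected at the endpoint and the untreated plates were passaged during the assay. No source used here states that the paired libraries of a group came from separate infections. The p-values therefore reflect library-to-library spread alone, some of which may be technical.

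EGFR is a receptor tyrosine kinase that signals through adaptors such as GRB2 to the RAS-MAPK cascade, to PI3K, AKT and mTOR, to phospholipase C gamma and to STAT proteins. Osimertinib binds mutant EGFR covalently and blocks its kinase activity, as erlotinib does reversibly. Cells with an activated EGFR commonly depend on that output for growth and survival, and loss of it can engage BIM, BAX and the apoptosome of the mitochondrial pathway of apoptosis. The Hippo pathway, with NF2 and the LATS kinases, restrains the transcriptional co-activators YAP1 and TAZ (WWTR1), which act through TEAD factors and respond to integrin adhesion.

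The fraction of reads that a guide takes was used as a proxy for how common its knockout was among the cells. Counts were summed over the guides of a gene, and the log2 fold change (L2FC) of a gene compares its share of reads under osimertinib with that at T0. Levels are given as CPM, the counts of a gene scaled to library size with trimmed mean (TMM) factors, so an L2FC of 0 is the course of the typical knockout. A knockout that divided more slowly and a knockout that died more often cannot be told apart in these counts. Library totals were 36636477 and 38116068 reads under osimertinib and 36940586 and 39200466 reads at T0, and the median guide had between 445 and 549 reads across all 8 libraries. The log2 levels of genes differed between the libraries of a group with an SD of 0.109 under osimertinib and 0.0766 at T0.

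Osimertinib-treated populations lost many knockouts and enriched few by a large factor. Of 17760 genes tested, 3302 (18.6%) were lower and 2640 (14.9%) were higher under osimertinib than at T0 at an adjusted p under 0.05 (edgeR quasi-likelihood test, Benjamini-Hochberg adjustment over all genes). Most of these changes were small. Among called genes, 820 were lower and 39 were higher by at least 0.5 on the log2 scale, and 146 were lower and 2 were higher by at least 1. The 5th and 95th percentiles of all genes were -0.47 and 0.22, and the lowest value was -2.19. The count of higher genes was 1416 without T0 replicate 1 and 1374 without T0 replicate 2.

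The reference point matters most for the small enrichments. The 138 non-targeting guides that were kept, which match no site in the genome, had a median L2FC of 0.15 and a range of -0.13 to 0.73. In the test of single guides 20 of them passed as higher and 0 as lower (14.5% and 0%, against 4.57% and 8.99% of targeting guides). When library factors were taken from non-targeting guides, the median of all genes became -0.15, 9472 genes were lower and 280 were higher. All 3302 genes that were lower than the typical knockout were lower than the non-targeting guides as well, whereas 575 of the 2640 higher genes took the opposite sign. Because this reference shifted L2FC values by a median of -0.16, only higher genes could readily change sign. The result for lower genes is therefore no test of them. Guides against 327 olfactory receptors, which lung cancer cells are not known to need, gave 27 lower and 45 higher genes (8.26% and 13.8%) and a median L2FC of 0.03, or -0.12 with non-targeting guides as reference. Values below are relative to the typical knockout unless non-targeting guides are named.

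**Figure D1:**
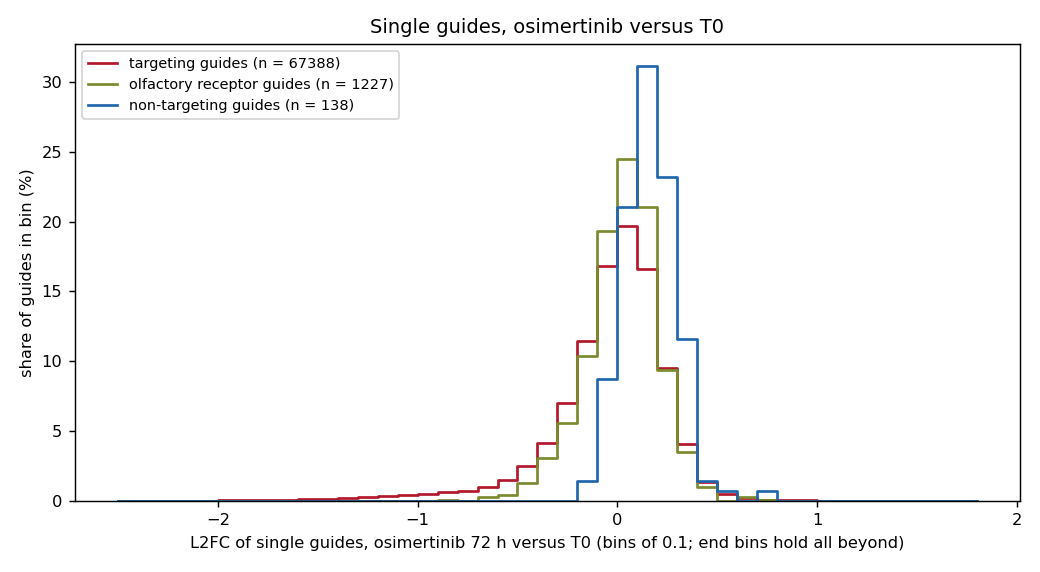
Share of single guides (y axis, percent) by L2FC between osimertinib at 72 h and T0 (x axis, bins of 0.1), for 67388 targeting guides, 1227 guides against olfactory receptors and 138 non-targeting guides. Non-targeting guides peak to the right of the others, with a median of 0.15 against 0.01 for targeting guides, and targeting guides have a long left tail that reaches -3.33.

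The 15 lowest L2FC values lay between -2.19 and -1.54. GMPPB, which makes the GDP-mannose used in glycosylation, had 7.19 and 7.92 CPM under osimertinib, against 35.6 and 33.5 CPM at T0. Its L2FC was -2.19 ± 0.12 (SE, n = 2 libraries per group; edgeR adjusted p = 2.7e-34), and all 3 guides passed the test. RABGGTB, a subunit of the enzyme that attaches geranylgeranyl groups to RAB proteins, had 10.7 and 12.5 CPM under osimertinib and 47.2 and 48.9 CPM at T0 (L2FC = -2.05 ± 0.10, adjusted p = 2.55e-38). For both genes the osimertinib libraries lay far under both T0 libraries. Much of this fall was also seen in untreated cells, with L2FC values against T0 of -1.71 for GMPPB and -1.64 for RABGGTB. Against untreated cells GMPPB was at -0.48 (adjusted p = 0.00426) and RABGGTB at -0.41 (adjusted p = 0.00256) under osimertinib.

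The talin TLN1, which links integrins to actin, had 10.5 and 8.03 CPM under osimertinib and 37.3 and 34.5 CPM at T0 (L2FC = -1.96 ± 0.11, adjusted p = 1.02e-33). PKN2, a kinase that acts downstream of small GTPases, had 12.5 and 11.5 CPM under osimertinib and 42.0 and 38.8 CPM at T0 (L2FC = -1.75 ± 0.09, adjusted p = 1.9e-34). The integrin-linked pseudokinase ILK had 12.7 and 12.8 CPM under osimertinib and 43.4 and 38.7 CPM at T0 (L2FC = -1.68 ± 0.09, adjusted p = 5.89e-33). The selection of these genes required groups without overlap and guides that all moved the same way. Each of their 3 guides was also called. The other genes among the 15 lowest were WDR33 and CPSF1 of the complex that cleaves and polyadenylates mRNA (-1.81 and -1.61), the mannosyltransferases ALG2 and ALG1 (-1.79 and -1.54), RANGAP1, the RAN GTPase activator (-1.79), and ZNF407 (-1.73). THOC3 of the mRNA export complex (-1.69), the arginine methyltransferase PRMT5 (-1.64), SRP19 of the signal recognition particle (-1.63) and the splicing helicase DHX15 (-1.62) completed them. Adjusted p-values of these 10 genes lay between 2e-36 and 4.85e-23. In untreated cells the same 10 genes had also fallen, with L2FC values against T0 between -1.44 and -0.99.

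NF2 was among the most enriched knockouts. NF2 (merlin), an upstream activator of the Hippo kinases, had 152 and 165 CPM under osimertinib and 78.1 and 74.5 CPM at T0 (L2FC = 1.05 ± 0.05, adjusted p = 2.45e-40). All 4 of its guides were higher and passed the test on their own, and the L2FC was 0.90 with non-targeting guides as reference.

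PDCD10, a scaffold protein of the STRIPAK phosphatase complex, had 158 and 151 CPM under osimertinib and 77.4 and 82.0 CPM at T0 (L2FC = 0.95 ± 0.05, adjusted p = 1.62e-36). The zinc finger gene ZNF689 had 104 and 104 CPM under osimertinib and 58.2 and 58.2 CPM at T0 (L2FC = 0.83 ± 0.05, adjusted p = 1.36e-28). In both, each of 4 guides was higher, as their selection required. The kinase MAP4K4, which can activate LATS kinases, followed at 0.78. RALGAPB of the RAL GTPase activator was at 0.76, PAXIP1 of a histone methyltransferase complex at 0.75, the acetyltransferase CREBBP at 0.74 and the ubiquitin ligase subunit FBXW7 at 0.74. LCMT1, which methylates the catalytic subunit of PP2A, was at 0.73, as was KCTD5, a CUL3 adaptor. TSC2 (0.71), LATS2 (0.71), TSC1 (0.70) and PLCG1 (0.65) were also among the highest. With non-targeting guides as reference these 14 genes had L2FC values of 0.49 to 0.90 and remained called.

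**Figure D2:**
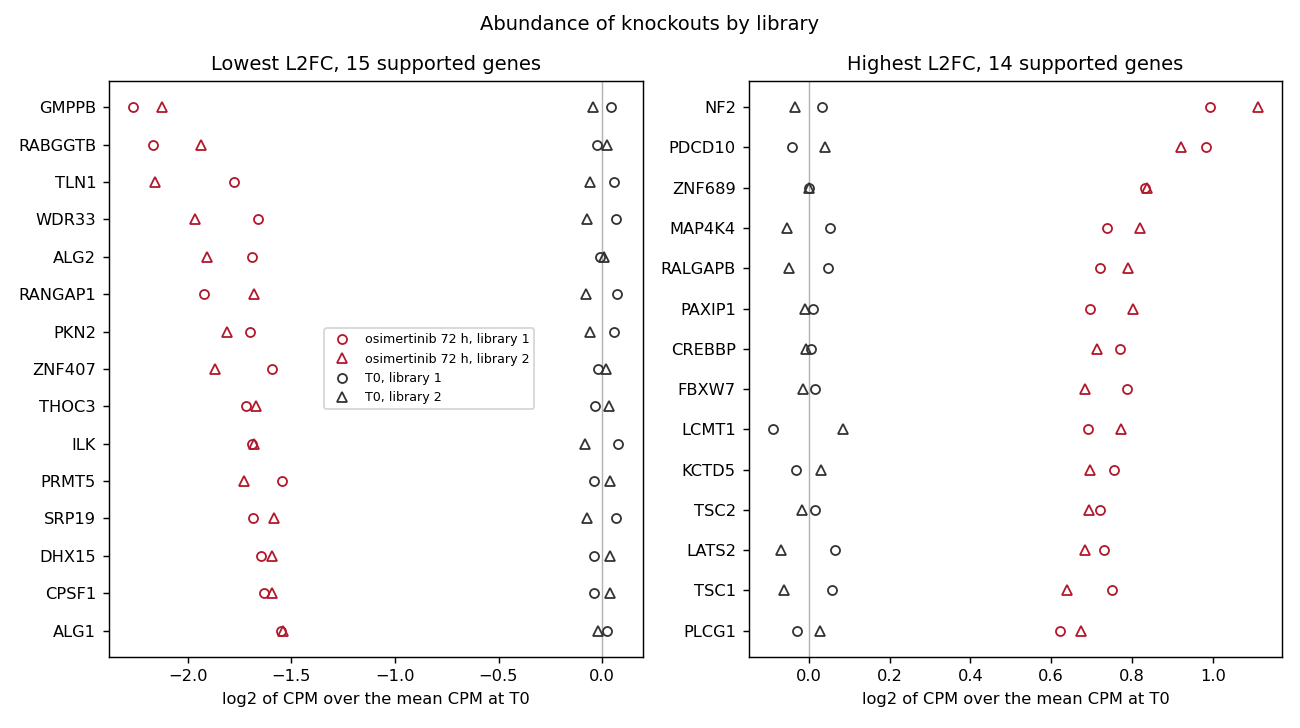
Log2 of the CPM of a knockout over its mean CPM at T0 (x axis), for 15 genes of the lowest (left) and 14 genes of the highest (right) L2FC among genes with at least 3 guides that all moved the same way. Red symbols are the 2 osimertinib libraries and grey symbols the 2 T0 libraries. The genes were picked among those whose groups did not overlap, so the gap in all 29 genes follows from the selection.

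Signalling downstream of EGFR was followed from receptors to effectors. EGFR itself had 23.0 and 23.9 CPM under osimertinib and 26.3 and 26.2 CPM at T0 (L2FC = -0.16 ± 0.09, adjusted p = 0.17). The EGFR libraries did not overlap between groups, but the difference did not pass the test. It passed with non-targeting guides as reference (-0.32, adjusted p = 0.00216) and in a limma fit of guide medians (-0.21). It also passed in the methods' test, which takes the median guide relative to non-targeting guides (-0.39, adjusted p = 0.00121). ERBB2 (-0.31, adjusted p = 0.00226), a partner receptor of EGFR, and the adaptors GRB2 (-0.52, adjusted p = 0.000304) and GAB2 (-0.31, adjusted p = 5.65e-06) fell. GRB2 had also fallen in untreated cells (-0.37 against T0) and was not called against them (-0.15, adjusted p = 0.456). Against untreated cells ERBB2 (-0.25, adjusted p = 0.0331) and GAB2 (-0.30, adjusted p = 4.28e-05) were lower. The ERBB3 value of -0.21 (adjusted p = 0.00564) lost its call without T0 replicate 1 (-0.17, adjusted p = 0.125). ERRFI1, a feedback inhibitor of EGFR, also fell (-0.36, adjusted p = 1.06e-07). In all, 6 of the 14 receptors and proximal adaptors were lower and 2 were higher (42.9% and 14.3%, against 18.6% and 14.9% of all genes). Their median was -0.11 against 0.01 for all genes.

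The PI3K-AKT branch moved in opposite directions for its activators and for some of its suppressors. Of 20 activators, 13 were lower and 0 were higher (65% and 0%, against 18.6% and 14.9% of all genes), with a median L2FC of -0.28. PDPK1, the kinase that phosphorylates the activation loop of AKT, had 19.4 and 17.8 CPM under osimertinib and 40.2 and 42.3 CPM at T0 (L2FC = -1.15 ± 0.09, adjusted p = 3.17e-23). RICTOR, which defines mTORC2, had 27.3 and 29.5 CPM under osimertinib and 46.6 and 47.1 CPM at T0 (L2FC = -0.72 ± 0.07, adjusted p = 2.73e-15). MTOR was at -0.74 ± 0.08 (adjusted p = 8.16e-14). Each was separate between osimertinib and T0, and all 4 guides of each were lower. Against untreated cells PDPK1 (-0.65) and RICTOR (-0.61) were lower, whereas MTOR was not called (0.17, adjusted p = 0.164). MTOR knockouts had fallen in untreated cells too (-0.91 against T0). PIK3CA, the catalytic subunit of PI3K, was at -0.28 (adjusted p = 0.000321), with 3 guides lower and 1 higher, and at -0.18 (adjusted p = 0.0585) without osimertinib replicate 1.

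The suppressors of this branch were divided. Of 22 tested, 5 were higher and 2 were lower (22.7% and 9.09%, against 14.9% and 18.6% of all genes). The median L2FC was 0.05. With non-targeting guides as reference it was -0.11 (-0.15 for all genes), and 4 were higher and 8 lower (280 and 9472 of all 17760 genes). TSC2, which with TSC1 inactivates RHEB and so mTORC1, had 134 and 131 CPM under osimertinib and 82.1 and 80.3 CPM at T0 (adjusted p = 2.67e-26). TSC1 had 122 and 113 CPM under osimertinib and 75.3 and 69.4 CPM at T0 (adjusted p = 1.76e-24). STK11 (LKB1), the kinase upstream of AMPK, went the other way at -0.60 (adjusted p = 1.25e-16). In the amino acid arm of mTORC1, 5 of 15 genes were lower and 1 was higher (33.3% and 6.67%, against 18.6% and 14.9% of all genes), with a median of -0.04. Of the lower ones, SEH1L (-0.27) lost its call without osimertinib replicate 1 (-0.23, adjusted p = 0.0577) or T0 replicate 1 (-0.24, adjusted p = 0.0951), and MIOS (-0.27) without osimertinib replicate 1 (-0.22, adjusted p = 0.0845) or T0 replicate 2 (-0.25, adjusted p = 0.104). SEC13 (-0.28) lost its call without T0 replicate 2 (-0.23, adjusted p = 0.0519).

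In the RAS-MAPK cascade BRAF did not pass the test, while several negative regulators were higher. Among 28 activators 7 were lower and 3 were higher (25% and 10.7%, against 18.6% and 14.9% of all genes), with a median of 0.00. The kinase BRAF was at 0.01 ± 0.06 (adjusted p = 0.888). With non-targeting guides as reference it was at -0.14 and passed the test as lower (adjusted p = 0.0343). The transcription factors MYC (-0.70, adjusted p = 3.78e-05) and ETV4 (-0.49, adjusted p = 7.64e-10) fell, and ETS1 rose (0.39, adjusted p = 2.54e-07). In untreated cells MYC and ETS1 had moved likewise from T0 (-0.62 and 0.39). Against untreated cells ETV4 was lower (-0.42, adjusted p = 3.1e-07), whereas MYC (-0.09, adjusted p = 0.759) and ETS1 (0.00, adjusted p = 0.998) were not called.

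Among 22 suppressors of RAS-MAPK signalling, 9 were higher and 1 was lower (40.9% and 4.55%, against 14.9% and 18.6% of all genes). The median was 0.14. With non-targeting guides as reference it was -0.02 (-0.15 for all genes), and 5 were higher and 4 lower (280 and 9472 of all 17760 genes). CIC, a repressor of ETS factor genes that ERK inactivates, had 79.9 and 83.8 CPM under osimertinib and 56.6 and 50.2 CPM at T0 (L2FC = 0.62 ± 0.06, adjusted p = 1.71e-17). Its guides spread from 0.08 to 1.31, and the methods' test, which takes the median guide relative to non-targeting guides, gave 0.12 (adjusted p = 0.288). The RAS GTPase activating protein RASA1 was at 0.59 (adjusted p = 2.29e-11), the CIC partner ATXN1L at 0.45 (adjusted p = 1.13e-10) and the feedback inhibitor SPRY2 at 0.41 (adjusted p = 6.87e-10). NF1, another RAS GTPase activating protein, did not pass the test (0.14, adjusted p = 0.147), but passed it without osimertinib replicate 2 (0.21, adjusted p = 0.0475).

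Of the remaining EGFR outputs, PLCG1 (phospholipase C gamma) had 103 and 107 CPM under osimertinib and 65.7 and 68.3 CPM at T0 (L2FC = 0.65 ± 0.05, adjusted p = 3.78e-21). It was the only gene of 17 on the phospholipase and protein kinase C list that was higher (5.88%, against 14.9% of all genes). On that list 1 gene was lower (5.88%, against 18.6% of all genes). STAT3 did not pass the test (0.01, adjusted p = 0.956), and its 4 guides were divided between both signs. With non-targeting guides as reference STAT3 was at -0.15 and passed as lower (adjusted p = 0.0139), as it did in the methods' test (-0.17, adjusted p = 0.0393). In the NF-kappaB pathway 6 of 23 genes were lower and 5 were higher (26.1% and 21.7%, against 18.6% and 14.9% of all genes). The kinase CHUK and the subunits RELA and RELB all lay at -0.44 (adjusted p between 1.59e-08 and 2.74e-07), and TRAF2, which holds back the non-canonical arm, was at 0.42 (adjusted p = 8.43e-08).

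Of 18 receptor kinases that can bypass EGFR, 3 were lower and 1 was higher (16.7% and 5.56%, against 18.6% and 14.9% of all genes). AXL had 40.7 and 36.0 CPM under osimertinib and 61.5 and 58.0 CPM at T0 (L2FC = -0.64 ± 0.07, adjusted p = 2.36e-15). FGFR1 had 48.3 and 53.4 CPM under osimertinib and 72.8 and 68.9 CPM at T0 (L2FC = -0.48 ± 0.06, adjusted p = 2.75e-11). In both genes every guide was lower and the groups did not overlap.

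Suppressors and effectors of the Hippo pathway moved in opposite directions. Of 22 suppressors of YAP, 15 were higher and 0 were lower (68.2% and 0%, against 14.9% and 18.6% of all genes). Their median L2FC was 0.32. With non-targeting guides as reference the median was 0.16 (-0.15 for all genes), 13 were higher and 3 lower (280 and 9472 of all 17760 genes). After NF2 came MAP4K4, with 96.7 and 102 CPM under osimertinib and 60.1 and 55.9 CPM at T0 (adjusted p = 2.7e-26). LATS2, the kinase that phosphorylates YAP1 and TAZ, had 95 and 91.9 CPM under osimertinib and 59.9 and 54.6 CPM at T0 (adjusted p = 1.2e-22). The cell surface protein KIRREL, which is known to recruit the Hippo scaffold SAV1, was at 0.61 (adjusted p = 1.14e-18).

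Of the 7 YAP, TAZ and TEAD genes, 6 were lower and 0 were higher (85.7% and 0%, against 18.6% and 14.9% of all genes). Their median L2FC was -0.54. WWTR1 had 17.0 and 17.1 CPM under osimertinib and 38.9 and 40.6 CPM at T0 (L2FC = -1.22 ± 0.09, adjusted p = 5.93e-25). YAP1 had 23.6 and 25.1 CPM under osimertinib and 51.4 and 53.9 CPM at T0 (L2FC = -1.11 ± 0.07, adjusted p = 1.9e-27). TEAD1 and TEAD4, their DNA-binding partners, were at -0.97 and -0.54. All guides of these 4 genes were lower, and 15 of their 16 guides passed the test on their own, the exception being a YAP1 guide at -0.37.

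Adhesion and actin genes followed. In integrin adhesion, 17 of 35 genes were lower and 1 was higher (48.6% and 2.86%, against 18.6% and 14.9% of all genes). Their median L2FC was -0.14. ITGB1, the beta subunit shared by many integrins, had 34.2 and 31.1 CPM under osimertinib and 67.9 and 73.0 CPM at T0 (L2FC = -1.11 ± 0.07, adjusted p = 2e-30). The ILK partner LIMS1 was at -0.93 (adjusted p = 4.75e-21), and the focal adhesion kinase PTK2 was at -0.88 (adjusted p = 1.93e-24). In the RAC1 and WAVE group, which drives branched actin, 17 of 26 were lower and 1 was higher (65.4% and 3.85%, median L2FC = -0.24). ACTR2 and ARPC4 of the Arp2/3 complex were at -1.17 and -0.91, and NCKAP1 of the WAVE complex was at -0.88.

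**Figure D3:**
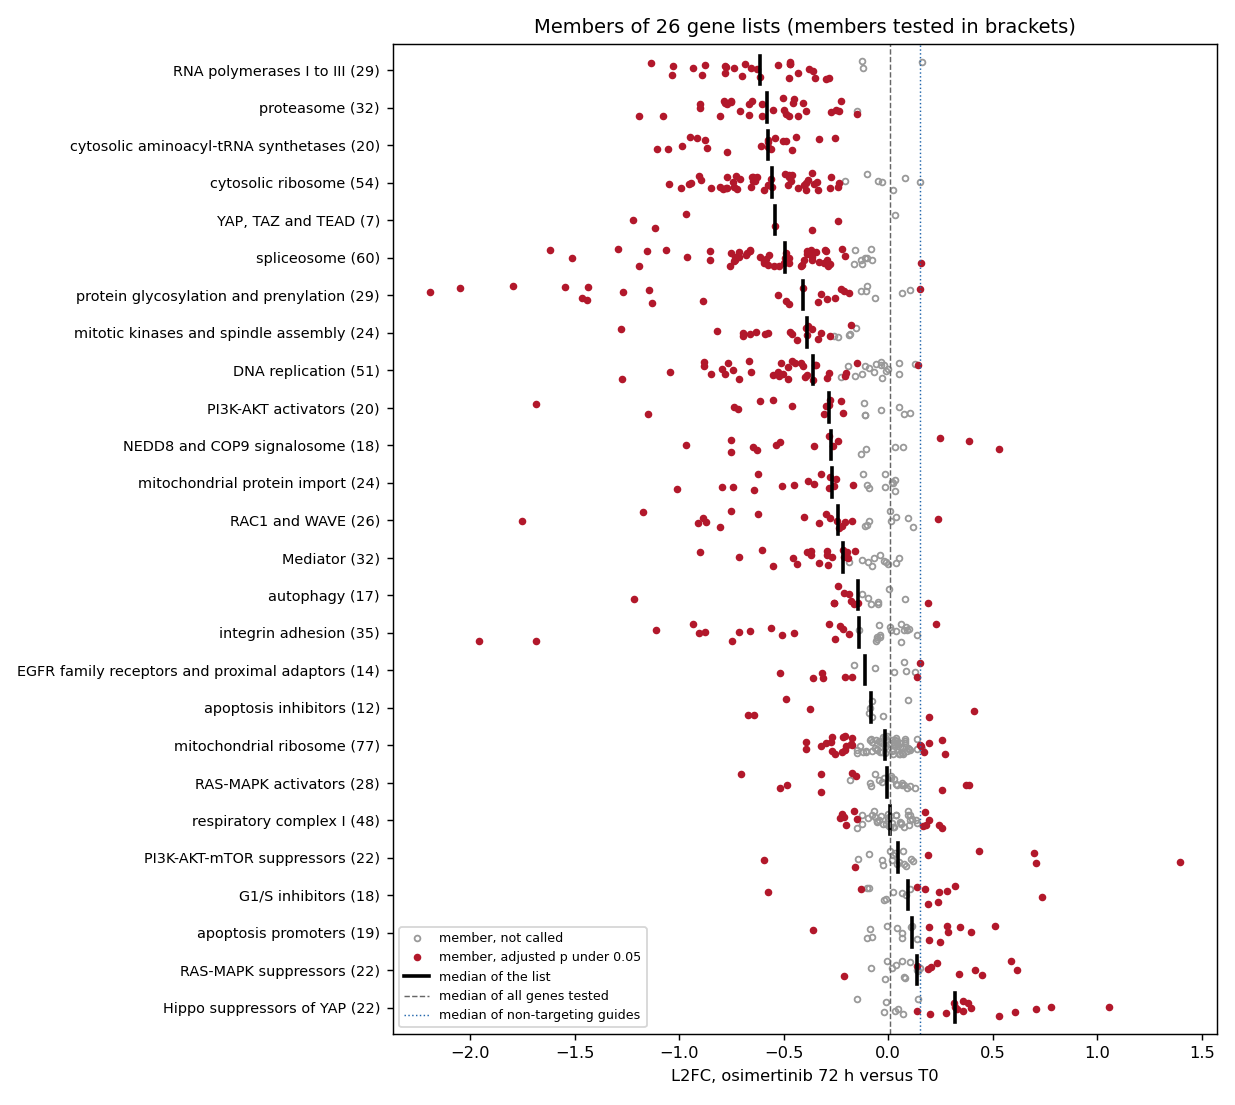
L2FC between osimertinib at 72 h and T0 (x axis) of each tested member of 26 gene lists (rows, with the number of members tested). Filled red points are members at an adjusted p under 0.05, black bars are list medians, and the dashed and dotted lines are the medians of all genes (0.01) and of non-targeting guides (0.15). Only the Hippo suppressors have a median to the right of both lines.

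Genes that promote apoptosis were enriched in part. Of 19 tested, 8 were higher and 1 was lower (42.1% and 5.26%, against 14.9% and 18.6% of all genes). Their median L2FC was 0.12. With non-targeting guides as reference the median was -0.04 (-0.15 for all genes), 4 were higher and 5 lower (280 and 9472 of all 17760 genes). APAF1, the core of the apoptosome, had 85.5 and 84.9 CPM under osimertinib and 57.3 and 62.3 CPM at T0 (L2FC = 0.51 ± 0.05, adjusted p = 1.58e-14). CASP9, the caspase that APAF1 activates, was at 0.40 ± 0.05 (adjusted p = 1.52e-11). The pore-forming protein BAX was at 0.35 (adjusted p = 1.29e-08). All guides of these 3 genes were higher.

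BCL2L11, which encodes BIM, was at 0.19 ± 0.06 (adjusted p = 0.00777), but its call was lost without osimertinib replicate 2 (adjusted p = 0.0632) and without T0 replicate 2 (adjusted p = 0.125), and its L2FC was 0.04 with non-targeting guides as reference. FADD, the adaptor of death receptors, fell (-0.36, adjusted p = 2.1e-05). CYCS (cytochrome c) had too few guides to be tested.

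Of 12 apoptosis inhibitors, 4 were lower and 2 were higher (33.3% and 16.7%, against 18.6% and 14.9% of all genes). BCL2L1 (BCL-XL) had 34.4 and 31.7 CPM under osimertinib and 54.5 and 50.5 CPM at T0 (L2FC = -0.67 ± 0.07, adjusted p = 3.83e-14). MARCH5, a ubiquitin ligase of the outer mitochondrial membrane, was at -0.64 (adjusted p = 1.61e-16), and UBE2J2, a ubiquitin-conjugating enzyme, was at -0.49 (adjusted p = 2.7e-12). MCL1 was at -0.37 (adjusted p = 0.000271), with 1 of its 3 guides at 0.03 and the lowest at -1.45. BIRC2, an inhibitor of apoptosis that also restrains non-canonical NF-kappaB, rose (0.41, adjusted p = 4.3e-08), but was not called in the methods' test (0.16, adjusted p = 0.0548).

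**Figure D4:**
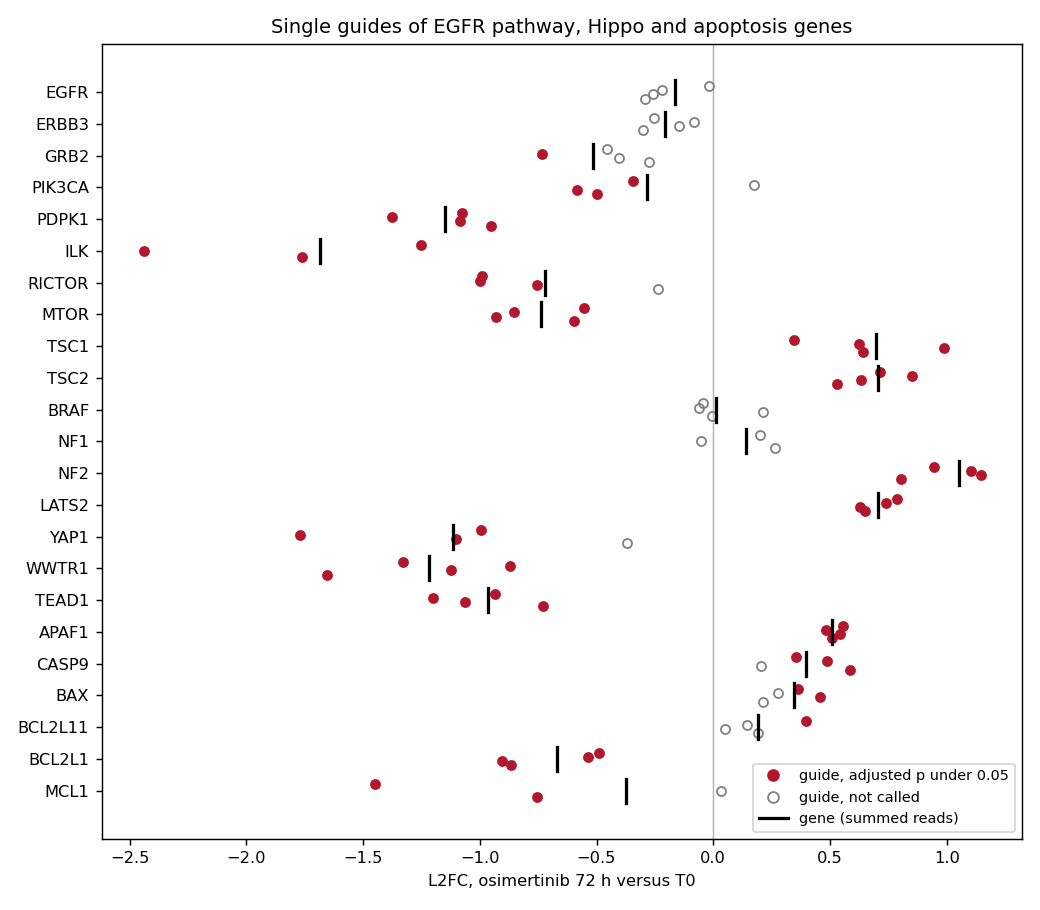
L2FC of single guides (points) and of the summed reads of the gene (black bars) between osimertinib at 72 h and T0 (x axis), for 23 genes of EGFR signalling, the Hippo pathway and apoptosis. Filled red points are guides at an adjusted p under 0.05. All 4 NF2 guides lie at 0.81 to 1.15, and the 4 EGFR guides lie between -0.29 and -0.02, none of them called.

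Cell cycle and stress genes added a few clear members. Of 14 G1/S promoters, 5 were lower and 0 were higher (35.7% and 0%, against 18.6% and 14.9% of all genes). CCND1 (cyclin D1) had 16.1 and 14.4 CPM under osimertinib and 26.6 and 27.8 CPM at T0 (L2FC = -0.84 ± 0.10, adjusted p = 1.48e-12), and its partner CDK4 was at -0.42 (adjusted p = 9.16e-10). Among 18 G1/S inhibitors, 8 were higher and 2 were lower (44.4% and 11.1%, against 14.9% and 18.6% of all genes). The median was 0.09. With non-targeting guides as reference it was -0.06 (-0.15 for all genes), and 3 were higher and 5 lower (280 and 9472 of all 17760 genes). FBXW7, which targets cyclin E and MYC for degradation, rose (adjusted p = 4.97e-22), as did RB1 (0.28, adjusted p = 2.35e-06), which was not called in the methods' test (0.12, adjusted p = 0.15).

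NFE2L2 (NRF2), the regulator of antioxidant genes, fell (-0.75, adjusted p = 5.53e-15). KEAP1, which marks NRF2 for degradation, rose (0.28, adjusted p = 3.69e-05) and was not called with non-targeting guides as reference (0.13, adjusted p = 0.0607). VMP1, a membrane protein needed for autophagosomes, fell (-1.22, adjusted p = 7.46e-27). The other 16 autophagy genes tested had L2FC values between -0.26 and 0.19. Of the 17 with VMP1, 9 were lower and 1 was higher (52.9% and 5.88%, against 18.6% and 14.9% of all genes). Their median was -0.14. Against untreated cells 6 were lower and 1 was higher (35.3% and 5.88%, against 8.65% and 8.78% of all genes). The lowest L2FC of the list there was -0.395, so VMP1 lay no further than that below untreated cells.

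Machinery that dividing cells share was depleted. The cytosolic ribosome, proteasome, spliceosome, RNA polymerases, cytosolic aminoacyl-tRNA synthetases and DNA replication had 246 tested genes. Of these, 208 were lower and 2 were higher (84.6% and 0.813%, against 18.6% and 14.9% of all genes). Their median L2FC was -0.50, against 0.01 for all genes. All 20 aminoacyl-tRNA synthetases were lower (median -0.58), such as GARS (-1.11) and LARS (-1.05). So were 31 of 32 proteasome genes (median -0.58), with PSMA6 at -1.08, 26 of 29 RNA polymerase genes (median -0.62), with POLR3A at -1.13, and 47 of 54 ribosomal protein genes (median -0.56), with RPL8 at -0.95. The spliceosome had 51 of 60 lower, with DDX46 at -1.51, and DNA replication had 33 of 51 lower, with the clamp loader subunit RFC3 at -1.27. Shares of lower genes in these parts ran from 64.7% to 100%, against 18.6% of all genes. Shares of higher genes ran from 0% to 1.96%, against 14.9% of all genes. For the ribosome, 54 of 77 listed genes had at least 2 guides after the filter on low counts, and the others were not measured.

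Beyond this machinery, 22 of 29 genes of protein glycosylation and prenylation were lower (median L2FC = -0.41), as were 19 of 24 mitotic kinases and spindle assembly genes (median -0.39, BUB3 at -1.28) and 21 of 32 Mediator subunits (median -0.22, MED18 at -0.90). Of 24 genes of mitochondrial protein import, 15 were lower (median -0.27, PMPCA at -1.01). In this order the lists had 75.9%, 79.2%, 65.6% and 62.5% lower, against 18.6% of all genes. Higher genes made up 3.45% of the glycosylation and prenylation list and 0% of the others, against 14.9% of all genes. The mitochondrial ribosome and respiratory complex I, in contrast, had medians of -0.01 and 0.01. Of 77 mitochondrial ribosome genes, 16 were lower and 6 higher (20.8% and 7.79%, against 18.6% and 14.9% of all genes). Of 48 complex I genes, 6 were lower and 6 higher (12.5% each way). No member of either list passed an absolute L2FC of 0.4.

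Because cells at T0 and cells at 72 h differ in time as well as in drug, osimertinib was also set against the untreated cells of the same time. In that comparison 1536 genes (8.65%) were lower and 1559 (8.78%) were higher. It shares the osimertinib libraries with the comparison against T0, so the values are given side by side and are not independent. The core machinery, with a median of -0.50 against T0, had a median of -0.02 against untreated cells, and 21 of its 246 genes were lower and 23 higher there. Its parts differed. Against untreated cells 8 of 32 proteasome genes were lower and 1 higher (median -0.12), and 2 of 29 RNA polymerase genes were lower and 8 higher (median 0.08). The medians of the other parts lay between -0.07 and 0.02. The counts of lower and higher genes against untreated cells were 864 and 841 without untreated replicate 1, and 910 and 916 without untreated replicate 2.

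PKN2 was the knockout furthest below untreated cells. It had 12.5 and 11.5 CPM under osimertinib and 33.2 and 32.4 CPM in untreated cells (L2FC against untreated = -1.45 ± 0.09, adjusted p = 5.7e-27). TLN1 (-1.36), YAP1 (-1.26), ILK (-1.21) and ITGB1 (-1.06) followed. EXT1, which builds heparan sulfate chains, was at -0.95 against untreated cells and at -0.90 against T0. The RNA helicase DDX39B (-0.94), WWTR1 (-0.93) and PTK2 (-0.81) were also among the lowest. For YAP1, ITGB1, EXT1 and PTK2, untreated cells did not pass the test against T0 (L2FC between -0.07 and 0.15).

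In the upward direction NF2 was at 1.23 against untreated cells (adjusted p = 2.1e-46). PPP2R4, an activator of PP2A, had 93.3 and 82.7 CPM under osimertinib and 49.7 and 50.5 CPM in untreated cells (L2FC = 0.81 ± 0.06, adjusted p = 3.78e-24), and C16orf72 was at 0.75 against untreated cells and 0.55 against T0. NAE1, a subunit of the enzyme that activates NEDD8, and HSCB, a chaperone of iron-sulfur cluster assembly, were above untreated cells yet below T0. NAE1 had 53.8 and 50.2 CPM under osimertinib and 29.0 and 31.8 CPM in untreated cells, against 63.1 and 63.5 CPM at T0, so that its L2FC was 0.77 against untreated cells (adjusted p = 9.94e-19) and -0.28 against T0 (adjusted p = 0.000114). HSCB was at 0.71 against untreated cells (adjusted p = 7.08e-20) and at -0.17 against T0 (adjusted p = 0.0103), and the call against T0 was lost without osimertinib replicate 2 (-0.11, adjusted p = 0.165) and without T0 replicate 1 (-0.17, adjusted p = 0.0806) or 2 (-0.18, adjusted p = 0.0666).

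EGFR and CUL3 showed the same order. EGFR had 23.0 and 23.9 CPM under osimertinib and 15.3 and 16.2 CPM in untreated cells (L2FC = 0.57 ± 0.10, adjusted p = 1.79e-06). Untreated cells were below T0 for EGFR (L2FC = -0.74, adjusted p = 1.45e-10), whereas osimertinib-treated cells did not pass that test. CUL3, a scaffold of ubiquitin ligases, was at 0.52 against untreated cells (adjusted p = 4.49e-08) and at -0.13 against T0 (adjusted p = 0.164). CUL3 passed against T0 as lower with non-targeting guides as reference (-0.29, adjusted p = 0.000672) and in the methods' test (-0.26, adjusted p = 0.00807). Without osimertinib replicate 2, CUL3 was at -0.27 against T0.

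**Figure D5:**
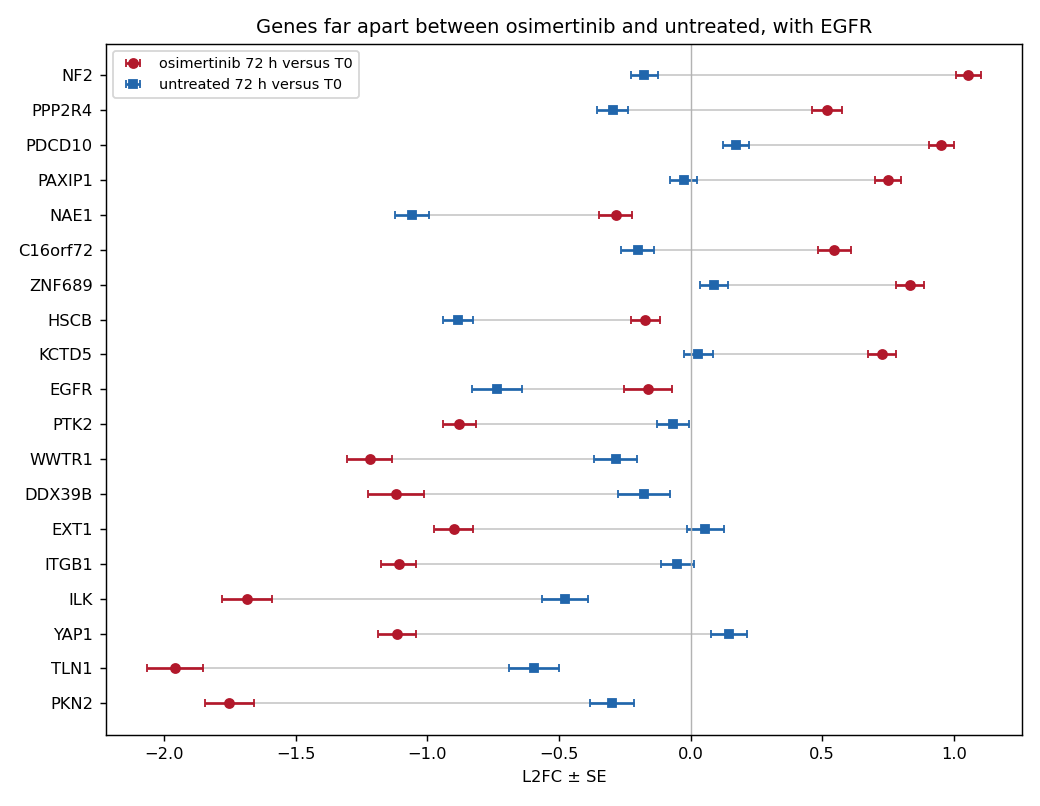
L2FC ± SE (x axis) against T0 of osimertinib at 72 h (red circles) and of untreated cells at 72 h (blue squares), for 18 genes among the furthest apart between osimertinib and untreated cells and for EGFR. Both values share the T0 libraries. In YAP1, ITGB1, EXT1 and PTK2 the untreated values lie near 0 and the osimertinib values between -1.11 and -0.88, and in NAE1, HSCB and EGFR the untreated values are the lower ones.

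Osimertinib and erlotinib were set against each other directly. The doses were 0.1 µM for osimertinib and 10 µM for erlotinib, so drug and dose cannot be told apart. By the same edgeR test, 351 genes (1.98%) were lower and 250 (1.41%) were higher under osimertinib than under erlotinib. Without erlotinib replicate 1 the counts were 148 and 84, and without erlotinib replicate 2 they were 116 and 68. BCL2L1 knockouts, at -0.67 under osimertinib relative to T0, had 34.4 and 31.7 CPM under osimertinib and 21.9 and 25.6 CPM under erlotinib (L2FC = 0.47 ± 0.08, adjusted p = 9.7e-06). All 4 of its guides were higher under osimertinib than under erlotinib, which was a condition for naming it in this comparison.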

How the data were processed

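The deposited values are unnormalized counts of reads for every guide and library. The authors amplified guide inserts by PCR without molecular identifiers, so count-based precision covers counting error only, and mapped reads to TKOv3 with at most 1 mismatch. For this step the methods name Bowtie2, while the processing notes of the submitters list Bowtie 1.3.1. A further arm with a higher dose of osimertinib was not analysed here. Guide sequences and a genome build are not given in the sources used here.

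The table held 71090 guides, 142 of them non-targeting. A spreadsheet had turned 50 gene names into amounts of money. Of these, 47 were restored through the RefSeq symbols and 3, with 9 guides, were left out. The 5% of guides with the lowest mean normalized count (cutoff 45.87) were removed, as in the methods. This left 67526 guides and 17760 genes with at least 2 guides (14330 with 4, 2943 with 3 and 487 with 2). Counts were summed per gene and fitted over all 8 libraries with edgeR 4.0.16 (R 4.3.3, TMM, quasi-likelihood F-test, 4 residual degrees of freedom). Single guides were fitted likewise. P-values are two-sided and adjusted by Benjamini-Hochberg, with a threshold of 0.05. The SE is the size of the L2FC over the square root of F. The methods' test, which sets a gene against 10000 draws of non-targeting guides, does not use the spread between libraries and was run as an alternative. The edgeR test on gene sums was also run on simulated data for osimertinib versus T0 over 17760 genes. It recovered 100% of genes changed by 0.5 and 100% of genes changed by 1 (log2), with 11 false calls. All simulated guides shared 1 dispersion, and far fewer genes were changed than were called in the data. The simulation therefore does not measure the error of the real calls. The other alternatives were DESeq2 1.42.0, limma 3.58.1 on guide medians, library factors from non-targeting guides, no removal of guides, calls from single guides, the 4 libraries alone, a replicate block and leaving out each library.

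The gene lists and the rule for named genes were chosen with earlier results of these data known. Supported genes had at least 3 guides, all guides on the same side of 0, no overlap between groups, and the same sign with non-targeting guides as reference. Named were the 15 lowest and 15 highest supported genes against T0, the 10 lowest and 10 highest against untreated among genes called in both comparisons and supported in that against untreated, the 4 lowest and 4 highest called and supported against erlotinib, up to 4 called members of each list by absolute L2FC, and a set of EGFR pathway, Hippo, stress, cell cycle and apoptosis genes whatever their values. Some genes that this rule names are not reported here. Lists are described by counts and medians, with no set test.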

Additional observations from a re-analysis of the deposited data

Results flagged for a closer look

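For 8 genes the change from T0 differed between osimertinib (0.1 µM) and erlotinib (10 µM) by the direct edgeR test of both drugs. They are the 4 lowest and 4 highest L2FC among genes called and supported in that comparison.

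EIF2AK4 (GCN2), the kinase of the integrated stress response that senses uncharged tRNA, had 52.6 and 55.0 CPM under osimertinib and 94.9 and 101 CPM under erlotinib (difference -0.86 ± 0.06, adjusted p = 1.11e-25). Against T0 it was at 0.08 under osimertinib (adjusted p = 0.322) and at 0.94 under erlotinib (adjusted p = 1.11e-29). GCN1L1, its activator, had 29.2 and 27.7 CPM under osimertinib and 51.8 and 54.0 CPM under erlotinib (difference -0.90 ± 0.08, adjusted p = 4.45e-18), with L2FC values against T0 of -0.28 under osimertinib and 0.62 under erlotinib. The libraries of both drugs did not overlap for either gene, as their selection required.

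The RNA helicase gene DDX55 differed by -0.66 (-0.93 against T0 under osimertinib and -0.28 under erlotinib), and VHL, the ubiquitin ligase subunit that marks hypoxia-inducible factors, by -0.55 (-1.03 under osimertinib and -0.48 under erlotinib). Higher under osimertinib were TBC1D10B, a RAB GTPase activator, by 0.67 (0.17 under osimertinib and -0.50 under erlotinib), and TPX2, a spindle assembly factor, by 0.49 (-0.28 under osimertinib and -0.77 under erlotinib). So were BCL2L1, by 0.47 (-0.67 under osimertinib and -1.14 under erlotinib), and ZNF689, by 0.43 (0.83 under osimertinib and 0.40 under erlotinib). Adjusted p-values for these 6 differences lay between 6.37e-14 and 0.00454. The TPX2 difference lost its call without erlotinib replicate 1 (0.47, adjusted p = 0.0808) and without erlotinib replicate 2 (0.51, adjusted p = 0.0555). Against T0, TBC1D10B under osimertinib was not called without osimertinib replicate 2 or without either T0 library (adjusted p = 0.172, 0.241 and 0.0823), nor was TPX2 without osimertinib replicate 1 or either T0 library (adjusted p = 0.169, 0.155 and 0.133).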

How the results depend on the processing

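Against T0, lower and higher genes numbered 3302 and 2640. Library factors from non-targeting guides gave 9472 and 280, calls from single guides 1519 and 467, and the methods' test 7661 and 243. The limma fit of guide medians gave 1483 higher genes. Without each library in turn, the counts ranged from 2359 to 3012 lower and from 1374 to 2298 higher genes. Against untreated cells (1536 and 1559), calls from single guides gave 237 and 244, the methods' test 712 and 647, and limma 997 and 860, with ranges without each library of 864 to 1368 and 841 to 1474. Against erlotinib (351 and 250), calls from single guides gave 10 and 4, DESeq2 218 and 128, limma 187 and 51, and the 4 libraries alone 197 and 127, with 66 higher genes by the methods' test and ranges of 116 to 428 and 68 to 330. Other settings stayed within 1.5 times.

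Of 205 values of named genes, all 205 kept direction and call with no guide removed, with the 4 libraries alone and with the replicate block. In DESeq2 202 did, in limma 195, with non-targeting guides as reference 188, in the methods' test 183 and by single guides 167. Among the genes reported here and called under either setting, signs turned toward lower for BRAF (-0.14) and STAT3 (-0.15) with non-targeting guides as reference, and for BRAF (-0.18), STAT3 (-0.17), EPHA2 (-0.015) and CHEK2 (-0.019) in the methods' test. That reference lowered the median of all genes against T0 by 0.16.

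Replicate numbers did not pair the samples, since same-numbered libraries correlated between -0.004 and 0.016 in their deviations from group means. The replicate block gave 3294 lower and 2633 higher genes against T0, 1519 and 1538 against untreated, and 346 and 239 against erlotinib. Each group had 2 libraries, which limits the estimate of spread.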
